A study of Mus musculus with 22 samples.

Results

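The genes described are 7 endothelial genes (Pecam1, Cdh5, Kdr, Tie1, Tek, Emcn and Cldn5) and 3 genes of macrophages and other blood cells (Ptprc, Csf1r and C1qa). They were taken by symbol from the expected count table of the series and are 10 of its 26202 gene symbols, each summed over its entries. The question was which cells other than cartilage precursors are held by the double-negative sort gate, from which the chondroblast enriched population of the embryonic mouse trachea was collected. At E13.5, cells were gated as epithelium (EpCAM positive), muscle (positive for the smooth muscle reporter gamma SMA eGFP) and double-negative (live cells negative for both). Control embryos carried Bmp4 f/f; gamma SMA eGFP or Notum 300/300; gamma SMA eGFP, and the double-negative mutants carried Notum 150/150; gamma SMA eGFP, 150 being a loss of function allele. All sorted groups therefore carried the reporter, and no blood or vessel antigen was named among the gates. Whole tracheas at E11.5 came from Wnt5a f/f controls and from Dermo1Cre; Wnt5a f/f mutants, in which the Cre acts in mesenchyme, so that vessels, blood, epithelium and mesenchyme were sequenced together. Each sample pooled 5 tracheas. The libraries used were 2 of double-negative control, 3 of double-negative Notum mutant, 2 of muscle, 2 of epithelium, 5 of E11.5 control and 4 of E11.5 Wnt5a mutant.

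Endothelial cells line blood vessels and are joined by adherens and tight junctions. Vascular endothelial growth factors act on the receptor Kdr, and angiopoietins on the receptor Tek and its partner Tie1, to form and stabilise vessels. Macrophages seed embryonic tissues early, depend on the receptor Csf1r and its ligands Csf1 and Il34, and clear dying cells. Ptprc encodes CD45, which nearly all blood cells carry apart from mature red cells.

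Levels are given as counts per 1e6 counts (CPM) scaled by TMM factors, 1 value per library. Libraries held 6880660 to 21678177 counts, and a floor of 3 counts corresponded to 0.138 to 0.436 CPM before scaling, for counting error only. Each control gate has 1 library of an earlier and 1 of a later date in the column names, while the Notum mutants (A to C) are all of the later date. What the dates mark is not stated, and the genotypes of the controls could not be assigned to columns. The column name of the earlier epithelium library lacks a sign and could be read otherwise. It was assigned because the 2 other columns of its date name muscle and double-negative cells in full. The column of Notum mutant C lacks a sign likewise. The gate genes followed the labels. Epcam reached 522 and 891 CPM in epithelium and at most 0.924 CPM in the 5 double-negative libraries, and Actg2, an actin of smooth muscle, 2159 and 1814 CPM in muscle and at most 12.1 CPM in double-negative libraries. The 13 cartilage genes summed to 4419 and 3703 CPM in the double-negative controls, to 1344 and 2841 CPM in muscle and to 469 and 546 CPM in epithelium. The targeted genes did not separate the mutants, and which exons the alleles remove was not examined. Wnt5a was at 46.3 to 126 CPM in Wnt5a mutant libraries and at 62.1 to 159 CPM in their controls, and Notum at 13.7 to 35.3 CPM in Notum mutant libraries and 13.7 and 86.0 CPM in the double-negative controls. In the double-negative controls, the 10 erythroid genes summed to 68830 CPM in the earlier library and 6165 CPM in the later one, and the 6 neutrophil genes to 344 and 2203 CPM, so the 2 libraries differed in their blood cell RNA.

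Promoters of 6 of the 10 genes were matched in RefSeq (GRCm38.p6), from 250 bases before to 50 bases after the start. Those of the 3 receptors Kdr, Tie1 and Tek are shown because these genes of 1 cell type differed in level between the gates, and that of Ptprc as the blood cell gene. Capitals mark the motifs AGGAAGT and GAGGAAG, bound by ETS factors including PU.1 (the 2 motifs can overlap), and TATAAA, each searched on both strands. The promoters are at chr5:75978406-75978705 (minus strand), chr4:118489800-118490099 (minus), chr4:94739039-94739338 (plus) and chr1:138175256-138175555 (minus).
Kdr: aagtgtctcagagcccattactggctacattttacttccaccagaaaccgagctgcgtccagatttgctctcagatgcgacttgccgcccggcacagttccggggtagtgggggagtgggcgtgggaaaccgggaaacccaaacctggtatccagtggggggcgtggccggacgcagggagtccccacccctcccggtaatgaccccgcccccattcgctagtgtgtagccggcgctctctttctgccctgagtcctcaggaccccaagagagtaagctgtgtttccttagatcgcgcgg
Tie1: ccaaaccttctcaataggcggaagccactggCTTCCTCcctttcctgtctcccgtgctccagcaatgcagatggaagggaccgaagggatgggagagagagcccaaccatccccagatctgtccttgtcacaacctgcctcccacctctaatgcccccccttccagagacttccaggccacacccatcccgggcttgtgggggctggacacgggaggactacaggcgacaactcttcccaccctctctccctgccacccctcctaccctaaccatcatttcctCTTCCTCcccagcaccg
Tek: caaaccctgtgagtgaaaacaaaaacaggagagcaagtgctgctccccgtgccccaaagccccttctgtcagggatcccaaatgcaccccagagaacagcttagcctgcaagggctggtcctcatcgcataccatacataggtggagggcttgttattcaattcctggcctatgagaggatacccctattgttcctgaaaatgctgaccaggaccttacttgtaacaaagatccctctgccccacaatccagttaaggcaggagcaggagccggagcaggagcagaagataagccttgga
Ptprc: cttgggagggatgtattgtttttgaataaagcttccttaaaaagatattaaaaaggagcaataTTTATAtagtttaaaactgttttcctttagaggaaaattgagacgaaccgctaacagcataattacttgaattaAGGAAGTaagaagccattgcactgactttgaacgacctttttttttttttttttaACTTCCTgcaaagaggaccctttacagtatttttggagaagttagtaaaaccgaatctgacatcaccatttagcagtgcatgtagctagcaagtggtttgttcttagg
Tie1 held GAGGAAG at 2 places, and Ptprc, in the promoter shown, held AGGAAGT at 2 places and TATAAA at 1. Another promoter entry of Ptprc, not shown, held AGGAAGT at 1 place and no TATAAA. Kdr, Tek, Emcn and Cldn5 held none of these letters in this window. Among 32851 promoters of the same length, 9.35% held AGGAAGT, 13.6% GAGGAAG and 13.6% TATAAA.

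The endothelial genes had their highest mean among the control gates in the double-negative cells. Tie1 was near 0 in muscle and epithelium, whereas Kdr and Tek were not near 0 in muscle. Tie1, the partner receptor of Tek, was at 14.4 CPM in the earlier and 4.26 CPM in the later double-negative control. It was at 0.119 and 0 CPM in muscle and at 0 and 0.130 CPM in epithelium, that is 0 to 2 counts a library. All 5 double-negative libraries, mutants included, lay above these 4. Pecam1, the platelet and endothelial adhesion molecule CD31, was at 22.6 CPM in the earlier double-negative control but at 0.0747 CPM, 1 count, in the later one. It was at 0.119 and 0.189 CPM in muscle and 0.862 and 0.0651 CPM in epithelium. Cldn5, the main claudin of endothelial tight junctions, was at 5.56 CPM in the earlier double-negative control and at 0 CPM in the later one, in both muscle libraries and in the later epithelium library, with 0.0958 CPM in the earlier epithelium library. For Pecam1 and Cldn5 the later double-negative control was therefore at the level of the other gates, whereas the 3 Notum mutants of the same date had 4.86 to 10.5 CPM of Pecam1 and 2.09 to 3.87 CPM of Cldn5.

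Cdh5, the cadherin of endothelial adherens junctions, was at 4.4 and 1.49 CPM in the earlier and later double-negative controls, at 0 and 1.13 CPM in muscle and at 0.0479 and 0 CPM in epithelium. Emcn, a sialomucin of venous and capillary endothelium, was at 7.08 and 7.39 CPM in the double-negative controls, at 0 and 4.095 CPM in muscle and at 0 and 0.2605 CPM in epithelium. Both had no count in the earlier muscle library and were present in the later one. Kdr, the main signalling receptor for Vegfa, was at 23.0 and 17.5 CPM in the double-negative controls and at 2.73 and 13.4 CPM in muscle. In epithelium it was at 0 CPM in the earlier library and at 6.77 CPM in the later one, where the other 6 endothelial genes were at 0 to 0.2605 CPM. Tek was at 36.1 and 23.2 CPM in the double-negative controls, at 15.9 and 19.3 CPM in muscle and at 0.431 and 0 CPM in epithelium, so that muscle held a Tek level that epithelium lacked.

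**Figure D1:**
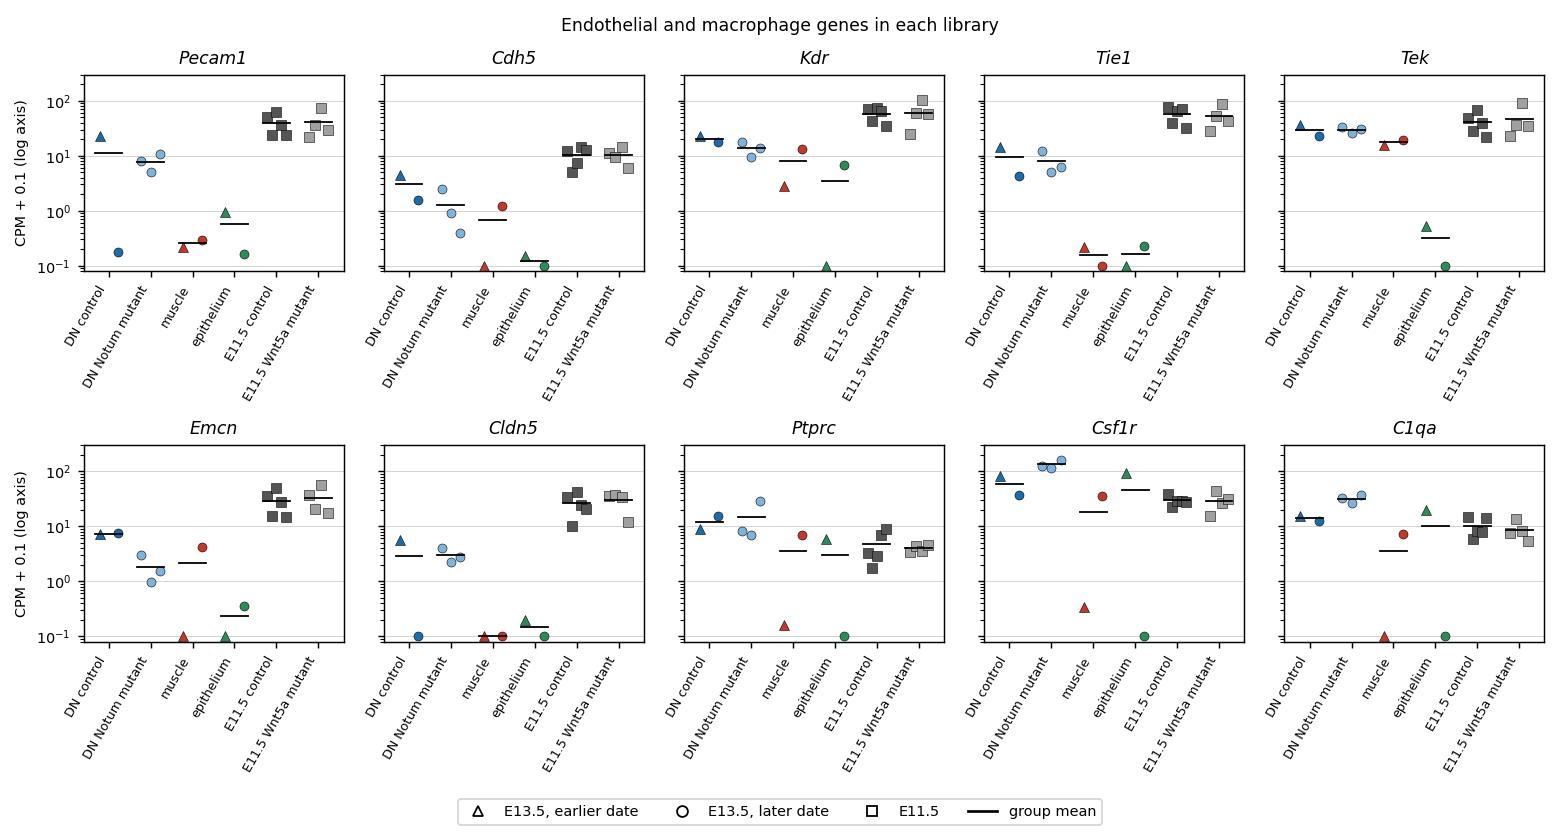
CPM plus 0.1 on a log axis for each of the 10 genes, 1 point per library (triangles and circles mark the E13.5 libraries of the earlier and later date, squares the E11.5 libraries), with a bar at the mean of each of the 6 groups. Tie1 lies at 0.130 CPM or less in the 4 muscle and epithelium libraries and at 4.26 CPM or more elsewhere, while Tek in muscle lies at 15.9 and 19.3 CPM.

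Kdr and Tek made up 98.7% and 85.8% of the summed CPM of the 7 endothelial genes in the earlier and later muscle libraries, 52.2% and 75.5% in the double-negative controls and 63.3 to 72.2% in the Notum mutants. In the E11.5 controls this share was 35.3 to 43.6%. The sum itself was 113 and 53.9 CPM in the earlier and later double-negative controls, 18.8 and 38.1 CPM in muscle, 1.44 and 7.23 CPM in epithelium and 49.0 to 79.5 CPM in the Notum mutants. Without Kdr and Tek it was 54.1 and 13.2 CPM in the double-negative controls and 0.238 and 5.42 CPM in muscle, so that muscle held less of the other 5 genes relative to Kdr and Tek than the double-negative gate. In bulk libraries, fewer cells of a type and less RNA per cell cannot be told apart.

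Tests between gates rested on 2 libraries a gate, and the biological coefficient of variation of the 3 gates in 1 fit was 66.8%. Against muscle, edgeR's quasi-likelihood test called 0 of the 8 genes tested at an adjusted p under 0.05, where 0% of 13687 genes were called higher and 0.132% lower, and DESeq2 called 0 of the 8. At an unadjusted p under 0.05 with a fold change over 1.5 it called 1, Tie1, with a background of 2.44% higher and 3.03% lower. Tie1 had a log2 fold change of 7.10 (SE 2.35, edgeR adjusted p = 0.771), a fitted size that depends on the 2 counts in muscle and is no bound. Pecam1 and Cldn5 did not pass the filter, which asked for 1 CPM in both libraries of a gate. The other 7 had log2 fold changes from 0.74 (Tek, SE 1.12) to 2.36 (Cdh5, SE 2.18), with edgeR adjusted p of 1.00. Of all 10 genes, Pecam1 and Cldn5 overlapped between the 2 gates and 8 lay higher in both double-negative libraries, where 21.2% of all genes tested did. As 6 of those 8 (all but Kdr and Tek) passed the filter through the double-negative gate alone, this order was largely set by the filter and supports nothing.

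Against epithelium, edgeR again called 0 of 8 at an adjusted p under 0.05, where 1.72% of genes were called higher and 1.02% lower, and called Tie1 and Tek at the unadjusted threshold, where 9.09% were called higher and 6.66% lower. Tek had a log2 fold change of 6.97 (SE 1.475, edgeR adjusted p = 0.0746) and Tie1 of 7.07 (SE 2.35, adjusted p = 0.205). DESeq2 called both, with an adjusted p of 8.43e-09 for Tek and 0.0141 for Tie1. With 1 epithelium library left out, Tek had an edgeR adjusted p of 0.0157 (without the earlier) and 0.0486 (without the later). In those fits the lone epithelium library is assumed to vary like the other gates, so they do not firm up a value that the fit with both libraries did not call. Cdh5 had a log2 fold change of 6.45 (SE 2.71, adjusted p = 0.312) and Emcn of 5.76 (SE 2.87, adjusted p = 0.3975), against epithelium libraries that held 0 to 4 counts of either gene. Of all 10 genes, Pecam1, Cldn5, Csf1r and C1qa overlapped between double-negative cells and epithelium and 6 lay higher in both double-negative libraries, as 28.5% of all genes tested did, with the same limit from the filter. In 1 fit of all 18 libraries, the spread was shared with the E11.5 replicates. There, 3 genes were called against muscle (Cldn5, Pecam1 and Tie1) and 6 against epithelium (Cdh5, Cldn5, Emcn, Pecam1, Tek and Tie1). Pecam1 and Cldn5 entered that fit only through the E11.5 and Notum mutant groups. They had 1 and 0 counts in the later double-negative control, so their calls support no difference between the gates. Over all genes, far more were called in that fit too, as given below.

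A wider list of 28 endothelial genes summed to 403 and 269.6 CPM in the double-negative controls, 232 and 191 CPM in muscle and 58.9 and 76.0 CPM in epithelium. Cd34, Fli1 and Clec14a had the highest means of the list in double-negative controls. Cd34, a surface mucin also made by fibroblasts and blood progenitors, was at 70.7 and 33.7 CPM in the double-negative controls and 35.5 and 24.4 CPM in muscle. Fli1, an ETS factor of endothelium and blood, was at 63.9 and 36.2 CPM in double-negative controls and at 3.45 and 26.8 CPM in muscle. Clec14a, an endothelial lectin, was at 30.45 and 47.35 CPM in double-negative controls and 16.1 and 23.75 CPM in muscle. These genes were thus not near 0 in the later muscle library either. Robo4, Sox7, Icam2, Tal1, Myct1, Gpr182 and Cyyr1 were at or under 3 counts in both muscle libraries. All of these but Sox7 were also at or under 3 counts in the later double-negative control. Of the 28 genes, 15 were at or under the floor in the later double-negative control and 0 in the earlier one, against 11 and 12 in the earlier and later muscle libraries, so the contrast with muscle in these genes rested on the earlier library. Sox17, Sox18, Vwf, Icam2, Tal1, Lyl1, Rasip1, Notch4, Myct1, Gpr182 and Cyyr1 had no count in the later double-negative control, whereas 0 to 1 of the 28 were at or under the floor in the Notum mutants. Flt1, a decoy and signalling receptor for Vegfa, was at 29.2 and 27.6 CPM in double-negative controls, 40.05 and 17.4 CPM in muscle and 1.485 and 0.195 CPM in epithelium and so, like Tek, was low in epithelium alone among the gates. Only 16 of the 28 passed the filter, some through the double-negative gate alone, so the counts and medians that follow describe genes partly kept for being high there and support no direction. Against epithelium 7 of the 16 tested wider endothelial genes rose at the unadjusted threshold and 0 fell, with a median log2 fold change of 4.31, beside 0.02 over all genes tested. Against muscle 1 rose (Sox7) and 0 fell, with a median of 0.73, beside 0.00 over all genes tested. At this threshold 9.09% of all genes rose and 6.66% fell against epithelium, and 2.44% and 3.03% against muscle.

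The macrophage genes did not follow the gates in the same way at both dates. Csf1r was at 82.95 CPM in the earlier and 36.15 CPM in the later double-negative control. In muscle it was at 0.238 CPM in the earlier library and 35.6 CPM in the later one, and in epithelium at 91.3 CPM in the earlier library and 0 CPM in the later one. C1qa, a chain of the complement protein C1q that tissue macrophages make, was at 15.3 and 12.4 CPM in the double-negative controls, at 0 and 6.99 CPM in muscle and at 19.6 and 0 CPM in epithelium. Ptprc was at 8.75 and 15.1 CPM in the double-negative controls, at 0.0594 and 6.74 CPM in muscle and at 5.80 and 0 CPM in epithelium. The 3 genes were present in both double-negative controls, in the epithelium gate at the earlier date and in the muscle gate at the later one, and near 0 in the other library of each of those gates. At each date 8 of the 10 genes had their highest control gate in the double-negative cells. The exceptions were Csf1r and C1qa at the earlier date, where epithelium was higher, and Pecam1 and Cldn5 at the later date, where all 3 gates were at 0 to 3 counts. The share of all genes with this order was not counted, so the count supports nothing about these genes.

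**Figure D2:**
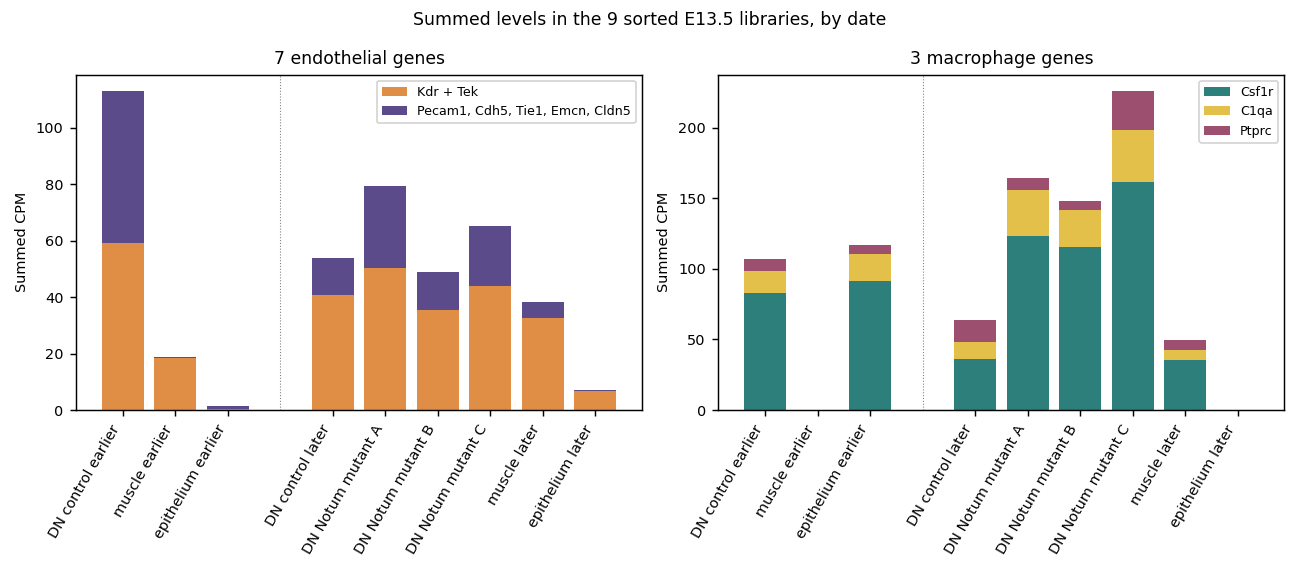
Summed CPM of the 7 endothelial genes (left, split into Kdr plus Tek and the other 5) and of the 3 macrophage genes (right, split by gene) in the 9 sorted E13.5 libraries, 1 bar per library, with the earlier date left of the dotted line. The macrophage sum is 117 CPM in the earlier epithelium library and 49.3 CPM in the later muscle library, and 0.297 and 0 CPM in the earlier muscle and the later epithelium library.

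Tests between gates did not call the 3 genes. Against muscle the log2 fold changes were 1.725 for Csf1r (SE 2.46), 1.80 for Ptprc (SE 2.48) and 1.975 for C1qa (SE 2.72). Against epithelium they were 0.36 for Csf1r (SE 2.39, edgeR adjusted p = 0.962), 2.01 for Ptprc (SE 2.49) and 0.47 for C1qa (SE 2.62). Without the earlier epithelium library the macrophage genes had no counts left in epithelium, and without the later one the log2 fold change of Csf1r was -0.65 and that of C1qa -0.54. The direction against epithelium therefore rested on which library was used.

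The wider list of 25 macrophage genes was likewise low in the earlier muscle and the later epithelium library. It summed to 612 and 1151 CPM in the earlier and later double-negative controls, to 17.65 and 567 CPM in muscle and to 531 and 7.55 CPM in epithelium. C1qb, another chain of C1q, was at 61.55 and 20.5 CPM in the double-negative controls and 75.7 CPM in the earlier epithelium library, and C1qc, the third chain, at 31.7 and 13.8 CPM and at 42.7 CPM in these. Cx3cr1, a chemokine receptor of tissue macrophages, was at 36.7 and 6.20 CPM in double-negative controls and at 37.6 CPM in the earlier epithelium library. In the later muscle library Cx3cr1 was at 1.76 CPM and Adgre1, which encodes F4/80, at 0.315 CPM, while Lyz2, the lysozyme of macrophages and neutrophils, was at 321 CPM. That library also held 389 counts of C1qb, 104 of C1qc, 225 of Mpeg1 and 214 of F13a1. The later double-negative control, with fewer counts in all, held 274, 185, 132 and 0. Low Cx3cr1 and Adgre1 thus did not stand for the whole list in later muscle. In the later double-negative control Lyz2 was at 711 CPM and Adgre1 at 29.9 CPM. Cd163, a scavenger receptor, was at 0 in both double-negative controls.

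Neutrophil genes were high in the same later libraries. S100a8, S100a9 and Ngp, which encode calcium-binding and granule proteins of neutrophils, were at 759.5, 512 and 927.5 CPM in the later double-negative control and at 338, 169 and 327 CPM in the later muscle library. In the earlier double-negative control they were at 78.1, 39.85 and 44.15 CPM. The granule enzymes Mpo and Elane, made by immature granulocytes, were at 161 and 18.6 CPM there and at 0 CPM in the later double-negative control. Neutrophils also carry Ptprc and Lyz2. The 6 neutrophil genes summed to 861 CPM in the later muscle library, to 5.32 CPM in the earlier epithelium library and to 171.5 to 262 CPM in the Notum mutants. Their part in the Ptprc values was not tested.

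Other cell types were read from further marker lists. In the earlier and later double-negative controls, the erythroid list was led by Hba-a1 at 34050 and 4643 CPM, and the fibroblast and perichondrium list by the collagens Col1a2 and Col1a1. The latter list summed to 8030 and 7789 CPM in double-negative controls and to 6156 and 7662 CPM in muscle, so it did not set these gates apart. Neuron genes summed to 296 and 414 CPM, led by Tubb3 and Stmn2. In muscle they summed to 15.0 and 255 CPM and in epithelium to 40.0 and 126 CPM. Neural crest and glia genes, led by Ednrb, summed to 107 and 164 CPM. Their sums were 441.5 and 436 CPM in muscle and 156 and 128 CPM in epithelium. Pericyte genes, led by Pdgfrb, summed to 333 and 362.5 CPM, with Higd1b at 0 in both. They reached 903 and 335 CPM in muscle and 62.2 and 69.7 CPM in epithelium. The neural crest and glia list and the pericyte list had their highest median among the control gates in muscle. Megakaryocyte genes summed to 45.6 and 1.64 CPM, led by Pf4, and lymphoid genes to 13.8 and 7.245 CPM. Mast cell genes summed to 34.5 and 62.4 CPM, led by Kit, with Tpsb2 and Mcpt4 at 0. Kit was not confined to this gate, with 718 and 114 counts in muscle and 723 and 2 in epithelium. Cpa3 of the same list had 146 and 296 counts in double-negative controls, 1 and 0 in muscle and 0 in both epithelium libraries. Hdc had 41 and 143 counts, 0 in both muscle libraries and 0 and 175 in epithelium. Smooth muscle genes summed to 209.6 and 192 CPM, against 15730 and 12260 CPM in muscle, and airway epithelium genes to 32.1 and 34.0 CPM, against 3223 and 3719 CPM in epithelium. Skeletal muscle genes summed to 56.6 and 47.4 CPM, mesothelium genes to 21.8 and 10.75 CPM and thyroid genes to 5.31 and 0.896 CPM, the last reaching 274 and 28.3 CPM in epithelium. Lymphatic endothelial genes were at 11.03 and 0.224 CPM. The arterial list (49.4 and 41.2 CPM) and the venous and plexus list (351 and 336 CPM) held genes such as Hey1, Efnb2 and Nrp2 that other cells express, and both reached higher sums in epithelium (71.3 and 100 CPM, and 436 and 456 CPM).

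**Figure D3:**
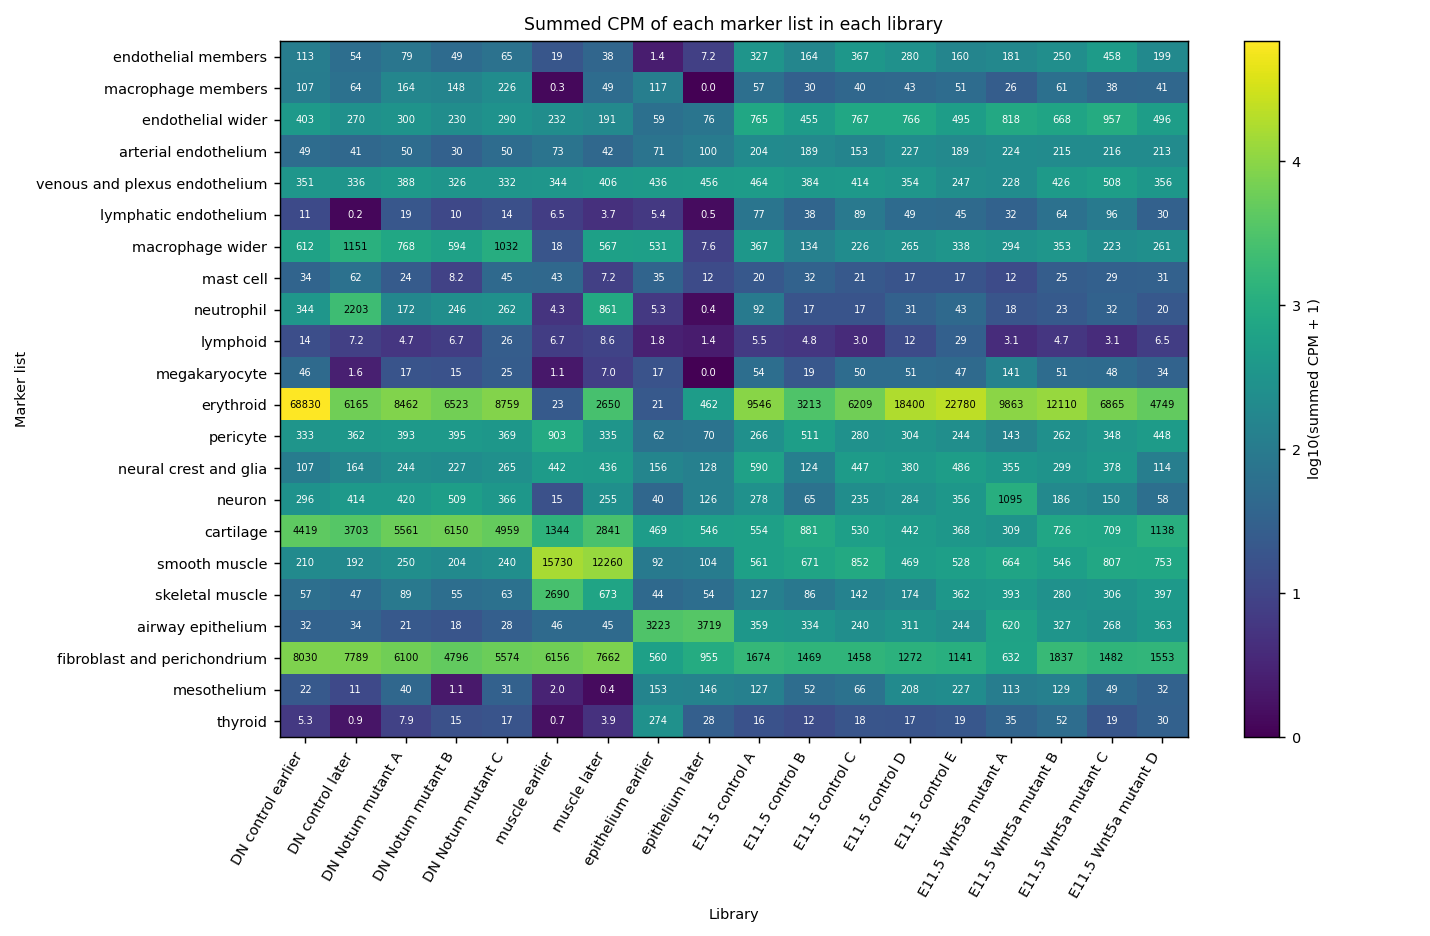
Summed CPM of the 7 endothelial genes, the 3 macrophage genes and 20 further marker lists (rows) in the 18 libraries (columns), with the value in each cell and colour by log10 of the sum plus 1. Blood lists (macrophage, neutrophil, erythroid) vary by library within a gate, whereas smooth muscle and airway epithelium lists follow the gate at both dates.

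Between Notum mutant and control double-negative cells, Csf1r and C1qa were higher and Emcn was lower in each mutant than in each control, and the other 7 genes overlapped. Csf1r was at 124, 115.5 and 161 CPM in mutants A, B and C, against 82.95 and 36.15 CPM in the controls. C1qa was at 32.55, 25.9 and 36.7 CPM, against 15.3 and 12.4 CPM. The lowest mutant lay above the highest control for both. Emcn was at 2.96, 0.876 and 1.41 CPM, below the 7.08 and 7.39 CPM of the controls. Groups that did not overlap were found for 16.6% of all genes tested in the higher direction and 17.3% in the lower one. Such an order was thus common over all genes. By itself it does not set Csf1r, C1qa and Emcn apart from other genes.

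edgeR called 0 of the 10 genes at an adjusted p under 0.05 in this comparison, where 0% of 14120 genes were called in either direction and DESeq2 called 526 genes. At the unadjusted threshold it called Csf1r and C1qa higher and Emcn lower, with 5.51% of genes called higher and 2.9% lower. The log2 fold changes were 1.19 for Csf1r (SE 0.355, edgeR adjusted p = 0.309), 1.22 for C1qa (SE 0.25, adjusted p = 0.243) and -2.02 for Emcn (SE 0.66, adjusted p = 0.331). DESeq2 called C1qa (adjusted p = 0.00318) and Csf1r (adjusted p = 0.0264). Against the later control alone, the only control of the mutants' date, edgeR called Csf1r (log2 fold change 1.90), C1qa (1.37), Cldn5 (8.78) and Pecam1 (6.59), the last 2 against a control with 0 and 1 counts. In that fit the lone control is assumed to vary like the mutants, and 2540 genes were called. With both controls Pecam1 had a log2 fold change of -0.52 (SE 1.395), so its direction turned with the earlier control. The median log2 fold change with both controls was -0.52 over the 7 endothelial genes and 1.19 over the 3 macrophage genes, beside 0.02 over all genes. Beyond the later control, genotype and date cannot be told apart.

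Tek was among the steadiest of the 10 genes across the double-negative libraries. It was at 32.6, 26.2 and 30.2 CPM in the mutants and 36.1 and 23.2 CPM in the controls (log2 fold change 0.02, SE 0.24). Kdr was at 17.7, 9.19 and 13.8 CPM, against 23.0 and 17.5 CPM (log2 fold change -0.55, SE 0.34). Tie1 was at 12.1, 4.96 and 6.24 CPM, against 14.4 and 4.26 CPM. Cdh5 was at 2.37, 0.827 and 0.292 CPM, and mutants B and C lay below both controls (4.4 and 1.49 CPM). Ptprc was at 8.19, 6.76 and 28.3 CPM, with mutant C above both controls and the others below them. Among the mutants, C also had the highest sum of the lymphoid list, 25.5 CPM against 4.73 and 6.66 CPM in A and B. It had 291 counts of the mast cell gene Cpa3, against 13 and 0. Its wider macrophage sum was the highest of the mutants too, 1032 CPM. The part of these cells in its Ptprc value was not tested. Of the 25 wider macrophage genes 24 were tested, 5 rose at the unadjusted threshold (Mrc1, C1qb, C1qc, Mpeg1 and Fcgr3) and 2 fell (Lyz2 and Cd52), with a median log2 fold change of 0.54 beside 0.02 over all genes. Of the 6 neutrophil genes S100a8, S100a9 and Ngp fell at the same threshold, and of the 10 erythroid genes 4 fell (Hba-a1, Hbb-bt, Hbb-bh1 and Alas2). Over all genes tested, 5.51% rose and 2.9% fell at this threshold. The erythroid list summed to 6523 to 8759 CPM in the mutants against 68830 and 6165 CPM in the controls, the neutrophil list to 171.5 to 262 CPM against 344 and 2203 CPM, and the wider macrophage list to 594 to 1032 CPM against 612 and 1151 CPM. Lists of other cells separated the groups as well. Neural crest and glia genes summed to 227 to 265 CPM in the mutants against 107 and 164 CPM in the controls, cartilage genes to 4959 to 6150 CPM against 4419 and 3703 CPM, pericyte genes to 369 to 395 CPM against 333 and 362.5 CPM and thyroid genes to at least 7.92 CPM against 5.31 and 0.896 CPM, all higher in the mutants. Fibroblast and perichondrium genes, at 4796 to 6100 CPM against 8030 and 7789 CPM, and airway epithelium genes, at 17.6 to 27.6 CPM against 32.1 and 34.0 CPM, were lower. The part of these cells in the values of Csf1r, C1qa and Emcn was not tested. Lyve1, a receptor of lymphatic endothelium and of some macrophages, rose at this threshold, from 0.354 and 0 CPM in the controls to 7.06, 3.065 and 7.21 CPM in the mutants.

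In whole tracheas at E11.5 the 10 genes overlapped between Wnt5a mutants and controls. Kdr ranged from 34.5 to 74.15 CPM in the 5 controls with a median of 65.6 CPM, and was at 25.2, 60.2, 101 and 57.2 CPM in mutants A to D. Tie1 ranged from 32.2 to 76.25 CPM in controls (median 64.9 CPM) and was at 28.0, 52.4, 86.45 and 42.7 CPM in mutants. Both groups spanned more than the difference between their medians. Tek was at 22.1 to 67.6 CPM in controls and 22.4 to 91.5 CPM in mutants, and Pecam1 at 23.6 to 61.9 CPM and 21.99 to 73.9 CPM. Emcn was at 14.8 to 49.0 CPM in controls and 17.2 to 56.3 CPM in mutants, Cldn5 at 9.98 to 41.9 CPM and 12.1 to 36.2 CPM, and Cdh5 at 5.06 to 14.1 CPM and 5.90 to 14.5 CPM. Mutant C had the highest value of Pecam1, Cdh5, Kdr, Tie1, Tek and Emcn among the 18 libraries, and its summed endothelial level was 458 CPM against 181 CPM in mutant A. Csf1r was at 22.6 to 38.8 CPM in controls and 15.15 to 43.9 CPM in mutants, C1qa at 5.87 to 14.7 CPM and 5.22 to 13.3 CPM, and Ptprc at 1.60 to 8.71 CPM and 3.26 to 4.43 CPM. The number of genes whose groups did not overlap was 0 of 10, where 0.696% of all genes had all mutants above all controls and 0.505% all below.

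edgeR called 0 of 10 at an adjusted p under 0.05, with 0.0136% of genes called higher and 0% lower, and 0 of 10 at the unadjusted threshold, with 1.19% higher and 2.53% lower. DESeq2 called 0 of the 10 as well. The log2 fold changes lay between -0.24 (Ptprc, SE 0.46) and 0.20 (Emcn, SE 0.42), and the SEs of the 10 genes between 0.27 and 0.46, so that differences of this size were not detectable with these libraries. These values came from a fit that ignored any pairing of the libraries. With the numbers of the column names as a block, which leaves 4 pairs and drops control E, 0 of 10 were called too.

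Set against the E11.5 controls, double-negative controls at E13.5 had lower Kdr, Tie1 and Emcn. This comparison joins whole tissue with sorted cells, so stage, sorting and tissue composition cannot be told apart in it. It shares the double-negative controls with the comparisons of gates and of Notum. Kdr had a log2 fold change of -1.51 (SE 0.35, edgeR adjusted p = 0.0278), Tie1 of -2.59 (SE 0.56, adjusted p = 0.02195) and Emcn of -1.98 (SE 0.53, adjusted p = 0.0443). These 3 of 10 genes were called lower and 0 higher, where 5.45% of 14728 genes were called lower and 7.01% higher. At the unadjusted threshold Cdh5 (log2 fold change -1.775) and Cldn5 (-3.18) were also lower and Csf1r was higher, against 13.3% lower and 12.8% higher over all genes. Libraries of 6 endothelial genes lay all below the E11.5 controls, with Tek as the exception, and those of Ptprc all above, patterns that 19.2% and 17.2% of genes showed. Pecam1 and Cldn5 passed the filter through E11.5 alone, so their lower direction was partly set by it, here and in the median below. Tek had a log2 fold change of -0.48 (SE 0.42), and Pecam1 of -1.77 (SE 1.15). The median was -1.775 over the 7 endothelial genes and 1.025 over the 3 macrophage genes. The calls rested on single libraries. Leaving out E11.5 control D left 0 of them, leaving out control A or C left Tie1, leaving out the later double-negative control left 0 of the 3, with Csf1r called higher instead, and leaving out the earlier one left Kdr and Tie1 and added Pecam1, Cdh5 and Cldn5.

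Csf1r had a log2 fold change of 1.025 (SE 0.32, edgeR adjusted p = 0.0672) against E11.5, Ptprc of 1.39 (SE 0.62, adjusted p = 0.168) and C1qa of 0.47 (SE 0.41, adjusted p = 0.473). Of the wider macrophage genes, 5 of 24 tested were called higher at an adjusted p under 0.05 (Fcer1g, Lyz2, Laptm5, Coro1a and Cd52) and 0 lower, with a median log2 fold change of 1.16 beside -0.05 over all genes. Of the wider endothelial genes, 5 of 27 were called lower (Esam, Egfl7, Sox17, Plvap and Ecscr) and 1 higher, with a median of -1.99. The gene called higher was Erg, an ETS factor of endothelium and also of cartilage, with a log2 fold change of 2.46 (SE 0.32). Over all genes 7.01% were called higher and 5.45% lower. Some endothelial genes, such as Sox17 (0.202 and 0 CPM in the double-negative controls), passed the filter through E11.5 alone. The lower direction and the median were therefore partly set by the filter.

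**Figure D4:**
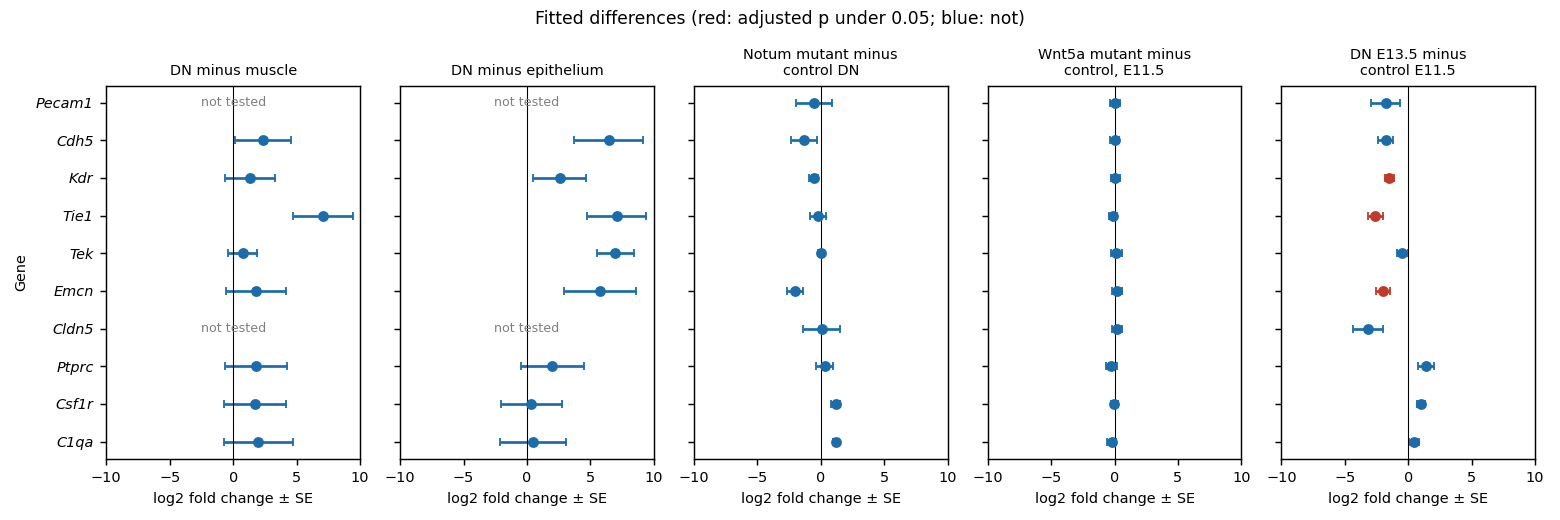
Log2 fold change with its SE for each of the 10 genes in the 5 comparisons, from edgeR, with genes called at an adjusted p under 0.05 in red and genes that did not pass the filter named as not tested. Red points are Kdr, Tie1 and Emcn in double-negative cells against E11.5 tracheas, and the Wnt5a mutant values lie between -0.24 and 0.20.

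The ligands of these receptors were measured in the same libraries. Angpt2, a ligand of Tek that can oppose Angpt1, was at 56.4 and 52.4 CPM in the earlier and later double-negative controls, at 138 and 119.8 CPM in muscle and at 2.97 and 0 CPM in epithelium. Against E11.5 controls (17.9 to 29.4 CPM) it rose in double-negative cells (log2 fold change 1.14, SE 0.22, edgeR adjusted p = 0.0151). Angpt1, the activating ligand of Tek, was at 10.2 and 13.4 CPM in double-negative controls, at 0.297 and 7.81 CPM in muscle and at 3.26 and 0.0651 CPM in epithelium. Vegfa was at 22.4 and 46.3 CPM in double-negative controls, at 46.2 and 33.9 CPM in muscle and at 34.2 and 58.7 CPM in epithelium, and these gates overlapped. Vegfb was at 8.90 and 15.2 CPM in double-negative controls, Vegfc, the ligand of Flt4, at 18.7 and 11.9 CPM, and Pgf, a ligand of Flt1, at 33.0 and 27.9 CPM. Csf1 was at 7.18 and 3.44 CPM in double-negative controls, at 11.47 and 3.97 CPM in muscle and at 20.55 and 7.49 CPM in epithelium. Il34 was at 0.253 and 0 CPM, at 0 in both muscle libraries and at 1.53 and 0 CPM in epithelium, so that Csf1 was the ligand of Csf1r detected in all 3 gates. Of the 8 ligands 7 were tested between double-negative cells and muscle, and 0 passed at the unadjusted threshold. Against epithelium 1 rose at the same threshold (Angpt2) and 0 fell. In the Notum comparison 0 rose and 1 fell (Vegfc, log2 fold change -0.94, SE 0.34). In the Wnt5a comparison 0 rose and 1 fell (Csf1, -0.67, SE 0.27), and against E11.5 1 rose (Angpt2) and 1 fell (Angpt1). Over all genes, 2.44% rose and 3.03% fell at this threshold against muscle, and 9.09% and 6.66% against epithelium. These shares were 5.51% and 2.9% for Notum, 1.19% and 2.53% for Wnt5a, and 12.8% and 13.3% against E11.5.

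Of 18 other genes of these pathways, 16 were tested between gates, with the same limit from the filter. Inpp5d and Vav1, a phosphatase and an exchange factor of blood cells, rose against muscle at the unadjusted threshold and 0 fell, with a median log2 fold change of 0.50 beside 0.00 over all genes. Flt1, Nrp1 and Eng rose against epithelium and 0 fell, with a median of 1.34 beside 0.02. Nrp1, a co-receptor for Vegfa that mesenchyme also expresses, passed the adjustment (log2 fold change 3.39, SE 0.41, edgeR adjusted p = 0.0144). It was at 368 and 197 CPM in double-negative controls, 361 and 207 CPM in muscle and 25.7 and 27.4 CPM in epithelium. In the Notum comparison Gab2 and Cbl rose at the unadjusted threshold and 0 of 18 fell (median 0.16 beside 0.02), and in the Wnt5a comparison 0 of 18 passed in either direction (median -0.01 beside -0.02). Against E11.5, Nrp1, Tyrobp, Hcls1, Rac2 and Vav1 rose and Flt4 and Ptprb fell at that threshold (median 0.35 beside -0.05). The shares of all genes at that threshold are those given for the ligands.

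Ordered by mean level, the 2 E11.5 groups were above the 4 sorted groups for all 7 endothelial genes. The next group in the order was a double-negative group in each case. It did not overlap with the E11.5 groups except for Tek and Pecam1. For Pecam1 the earlier double-negative control (22.6 CPM) lay above E11.5 Wnt5a mutant A (21.99 CPM) but below the lowest E11.5 control (23.6 CPM). The double-negative controls and Notum mutants overlapped for 6 of the 7, the exception being Emcn. For the 3 macrophage genes the order began with the Notum mutants and then the double-negative controls. To compare genes, CPM were divided by exon length (exons joined over transcripts, GENCODE vM21 on GRCm38). Per kilobase, C1qa was at 13.3 ± 1.955 and Csf1r at 10.3 ± 5.73 CPM per kb in the double-negative controls (SD, n = 2), and Ptprc at 0.651 ± 0.245 CPM per kb. Tek was at 6.30 ± 1.93, Kdr at 2.24 ± 0.4335, Tie1 at 1.90 ± 1.46 and Cdh5 at 0.701 ± 0.489 CPM per kb. In the E11.5 controls Cldn5 had the highest mean at 18.3 ± 8.62 CPM per kb (SD, n = 5), followed by Tie1 at 11.52 ± 4.04, C1qa at 9.65 ± 3.85, Tek at 8.77 ± 3.78, Kdr at 6.39 ± 1.98, Pecam1 at 6.30 ± 2.70, Emcn at 5.24 ± 2.665 and Csf1r at 5.075 ± 1.02 CPM per kb, with 1 SD of neighbours overlapping. The annotation behind the counts is not given in the sources used here, so these lengths may differ from those counted.

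Across the 18 libraries, on the scale of log2 of CPM plus 1, the 21 pairs of endothelial genes had Pearson correlations of 0.65 to 0.96 and the 3 pairs of macrophage genes of 0.85 to 0.97, as a description only, since gate and stage are shared by the points. Among 13398 other genes with a mean of at least 2 CPM, those most like the mean of the endothelial genes were Aplnr (r = 0.97), Scarf1 (0.97), Adgrl4 (0.97), Mmrn2 (0.96), Nos3 (0.96) and Flt4 (0.96). Aplnr, the apelin receptor, was at 23.9 and 12.25 CPM in the double-negative controls and at 0.238 and 0.315 CPM in muscle, so it lacked the muscle level of Kdr and Tek. Those most like the mean of the macrophage genes were Tyrobp (0.98), Fcer1g (0.98), Laptm5 (0.97), Unc93b1 (0.96), Myo1f (0.96) and Cyth4 (0.95). Tyrobp, a signalling adaptor of myeloid cells, was at 45.0 and 42.7 CPM in the double-negative controls, at 0 and 17.6 CPM in muscle and at 35.6 and 0 CPM in epithelium.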

How the data were processed

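Poly(A) RNA of sorted cells and whole tracheas was reverse transcribed and amplified (SMART-Seq v4, Nextera XT libraries). The authors deposited expected counts (estimated counts, 56.0% of values fractional), not normalized, for 47248 entries in 22 columns. The submitters' processing notes name mm10, Partek and limma, and the paper's methods name DESeq2. Aligner, counting tool and strand setting are not given in the sources used here. Of the 22 columns, 18 were assigned to a group, and the other 4, with no matching label, were left out. The labels list 3 double-negative control, 4 Notum mutant, 3 muscle and 3 epithelium samples, of which 2, 3, 2 and 2 have a column here. Mutants B and C share a number in their column names, so whether they come from separate litters is not known, and p-values measure only the spread between these libraries, which may be technical. Entries were summed per symbol and rounded to whole numbers. The test was edgeR 4.0.16 (R 4.3.3; TMM, quasi-likelihood, 2-sided, Benjamini-Hochberg over all genes), the 3 control gates sharing 1 fit. A gene was kept when over 50% of a group's libraries reached 1 CPM. The SE is the size of the log2 fold change over the square root of F. Members, lists and tests were chosen with earlier results of these data known. Named genes were the members, gate and targeted genes, ligands, up to 3 leading genes of each list and its defining genes at 0, and the 6 genes most like each group of members. Other names were chosen after their values were seen. On simulated data, 4-fold changes in 200 genes were recovered for 60 genes against muscle, 69 against epithelium, 140 for Notum, 182 for Wnt5a and 131 against E11.5, among 13687, 13687, 14120, 14663 and 14728 genes. At E11.5 the column names of 4 controls and 4 mutants share the numbers 7, 13, 17 and 18. Same-numbered libraries deviated together (r = 0.62, 0.21, 0.13 and 0.13 over 14667 genes). The main Wnt5a fit was unpaired, and the numbers were a block only in an alternative. Libraries of 1 date deviated together at r = 0.12 between double-negative cells and muscle and 0.15 between double-negative cells and epithelium. Between muscle and epithelium r was 0.0063. Dates likewise were a block only in an alternative. For each of the numbers 7, 13, 17 and 18, the mutant that deviated most like the control was the one of the same number. The numbers may therefore pair the E11.5 libraries, which the main fit ignored, but what they mark is not stated. The small correlations by date do not settle whether dates pair the samples. Alternatives were DESeq2 1.42.0, its size factors in edgeR, library size alone, other filters, the largest entry per symbol, other sets of libraries, a replicate block and leaving out each library.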

Additional observations from a re-analysis of the deposited data

Results flagged for a closer look

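Csf1r and C1qa differed from epithelium in opposite directions at the 2 dates. For double-negative control minus epithelium, the earlier date gave -8.319 CPM of Csf1r and -4.368 CPM of C1qa, and the later date 36.15 and 12.4 CPM. For muscle minus epithelium, the earlier date gave -91.03 CPM of Csf1r, -19.64 CPM of C1qa and -5.737 CPM of Ptprc, and the later date 35.59, 6.993 and 6.741 CPM. With 1 library per gate and date, the difference between the dates was not tested. The earlier epithelium library, whose column name lacks a sign, had 522 CPM of Epcam, and the later muscle library 1814 CPM of Actg2.

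Cldn5 in E11.5 Wnt5a mutant D was at 12.07 CPM, apart from the other 3 mutants by Dixon's criterion. It was 1 of 20 groups of values examined, and chance flags about 1 in 20.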

How the results depend on the processing

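With 2 libraries a gate, the calls depended on the tool and on how libraries shared a spread. The causes were not tested. Against muscle 0 of the members were called by DESeq2 and without a filter, and 3 in 1 fit of 18 libraries, while all genes called went from 18 to 254 with DESeq2, 305 without a filter, 532 in 1 fit of 18 libraries and 50 in 1 fit of 9 sorted libraries. Against epithelium 2 members were called by DESeq2, 1 without a filter, 6 with 18 libraries and 2 with 9, and all genes called went from 375 to 1554, 1463, 2961 and 1232. For Notum DESeq2 called 2 members, and all genes called went from 0 to 526 with DESeq2, 42 without a filter, 7 with the largest entry and 9 with 18 libraries. For Wnt5a 0 members were called under each alternative, and all genes called went from 2 to 40 with DESeq2, 5 by library size, 9 without a filter, 6 with the largest entry and 0 with 18 libraries. Against E11.5 members called went from 3 to 5 with DESeq2 and 1 with 18 libraries, and all genes called from 1835 to 3493 with DESeq2. Neither DESeq2's size factors in edgeR nor a minimum of 10 counts in every library of a group moved a count of calls by over 1.5 times. Depth limits the reading of Pecam1, Tie1 and Cldn5 in muscle and epithelium, where most libraries were at or under 3 counts.

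Leaving out each library gave 0 to 1 members against epithelium, 0 to 4 for Notum, 0 to 5 against E11.5, and 0 against muscle and for Wnt5a. All genes called ranged from 2 to 22 against muscle, 20 to 1038 against epithelium, 0 to 2540 for Notum, 0 to 3 for Wnt5a and 825 to 3391 against E11.5. The extremes came without the earlier double-negative control (2540 for Notum, 3391 against E11.5) and without the later one (20 against epithelium, 825 against E11.5). Log2 fold changes that turned sign ranged from -0.65 to 12.92 for Csf1r and -0.54 to 10.81 for C1qa against epithelium, and for Notum from -1.53 to 6.59 for Pecam1, -0.88 to 0.88 for Tie1, -0.27 to 0.37 for Tek, -0.94 to 8.78 for Cldn5 and -0.65 to 0.74 for Ptprc. For Wnt5a they ranged from -0.43 to 0.27 for Pecam1, -0.19 to 0.22 for Cdh5, -0.29 to 0.33 for Kdr, -0.47 to 0.08686 for Tie1, -0.42 to 0.41 for Tek, -0.18 to 0.50 for Emcn, -0.03023 to 0.45 for Cldn5, -0.45 to 0.12 for Ptprc and -0.27 to 0.20 for Csf1r.

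Sign changes elsewhere were of values near 0: Tek for Notum was -0.001208 with 18 libraries, and for Wnt5a Csf1r was 0.05165 by library size, 0.02838 without a filter and 0.0006329 with the largest entry, and Tek -0.05445 with the largest entry. With the replicate block at E11.5, Pecam1 was -0.1523, Kdr -0.1704, Tek -0.1312 and Ptprc 0.28, with 3 genes called in all. With the date as a replicate block, 24 genes were called against muscle and 298 against epithelium, and 0 members in either. The block changed no member's call. After seeing the data, levels were also taken by date: 8 of the 10 members were highest in the double-negative gate at each date. By the mean over both dates all 10 were, also with the earlier epithelium library left out of its mean. No share over all genes was counted for these orders, so they only describe the members.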
